A study of Mus musculus with 3 samples.

Results

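Oxidative phosphorylation (OXPHOS) genes were examined in intestinal epithelial cells (IEC) that had been cultured with type-3 innate lymphoid cells (ILC3). The genes were chosen by symbol, as every protein-coding row named for a mitochondrially encoded respiratory subunit (mt-Nd, mt-Co, mt-Atp and mt-Cytb), for NADH dehydrogenase (Nduf), succinate dehydrogenase (Sdh), the cytochrome bc1 complex (Uqcr and Cyc1), cytochrome c oxidase (Cox4 to Cox8) or ATP synthase (Atp5). This gave 108 of the 35824 genes in the table, 13 encoded in mitochondrial DNA and 95 in the nucleus. Of the nuclear genes 84 encode subunits, and 11 are caught by name only: 8 Ndufaf assembly factors of complex I, Cox7a2l (a supercomplex factor), Atp5s (coupling factor B) and a second locus annotated as Atp5o.

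All libraries came from IEC + ILC3 co-cultures, in which small intestinal organoids of female C57BL/6 CD45.1 mice, 6 to 8 weeks old by the labels, were grown with ILC3 for 4 days before IEC were sorted as EpCAM-positive, CD45-negative cells. There were 3 libraries, A, B and C, and the labels mark C as excluded from the final analysis and A and B as included. The only comparison available is therefore C against A and B, which is between libraries of 1 condition, and IEC ONLY cultures were not analysed here. An organoid holds epithelium without the vessels, nerves and flora of the gut, so these levels describe cultured epithelium.

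Respiratory complexes I, III and IV pass electrons from NADH and ubiquinol to oxygen and pump protons across the inner mitochondrial membrane, complex II feeds electrons in from succinate, and complex V uses the proton gradient to make ATP. All but complex II are built from both genomes: mitochondrial DNA supplies the membrane-embedded core subunits, transcribed as long polycistronic RNAs and cut into mRNAs, and nuclear genes supply the rest along with the assembly factors. In the intestinal epithelium this pathway has been reported to become more prominent as cells leave the crypt and differentiate. The libraries here do not separate crypt cells from differentiated ones, so this was not tested.

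Total counts were 28913885 in C, 17946361 in A and 23142849 in B. Genes that reached 10 counts numbered 11986 in C, 12549 in A and 12964 in B. Markers of intestinal epithelium summed to 14638 CPM (counts per 1000000, scaled by TMM) in C, against 12215 in A and 12644 in B, with none of the 10 genes at 0, and Krt8, a keratin of simple epithelia, was the most abundant per length. The 16 ILC3 and lymphocyte markers summed to 33.7 CPM in C, against 46.3 in A and 37.8 in B. Counts of Ptprc, which encodes CD45, were 0 in C and B and at 0.0552 CPM in A, and 13 of the 16 markers were at 0 in C, 10 in A and 12 in B. B cell and myeloid markers summed to 8.20 CPM in C, against 7.78 in A and 6.10 in B. The 10 stromal markers summed to 1.78 CPM in C, against 4.91 in A and 6.79 in B. The part of other cells in the values below was not tested, and fewer cells of a type cannot be told apart from less RNA per cell.

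Reading frames overlap at 3 places in the mitochondrial genome, and the stretches are shown because their shared bases belong to both genes. A read longer than the shared bases also holds bases outside them. In GRCm38 coordinates, the first (chrM:7909-7987, plus strand) is where mt-Atp8 runs into mt-Atp6, the second (chrM:10143-10197, plus strand) where mt-Nd4l runs into mt-Nd4, and the third (chrM:13528-13589, plus strand shown) where mt-Nd5 meets mt-Nd6. Capitals mark the shared bases, 43 for the first pair, 7 for the second and 14 for the third.
mt-Atp8 and mt-Atp6 overlap: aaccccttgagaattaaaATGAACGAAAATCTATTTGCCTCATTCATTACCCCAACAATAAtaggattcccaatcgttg
mt-Nd4l and mt-Nd4 overlap: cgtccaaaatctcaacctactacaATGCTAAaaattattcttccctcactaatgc
mt-Nd5 and mt-Nd6 overlap: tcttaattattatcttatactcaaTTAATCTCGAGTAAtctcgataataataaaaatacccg
In the first 2 stretches the capitals open with the start codon of the downstream frame and close with the stop codon of the upstream one. mt-Nd6 is the only one of the 13 genes on the other strand. SMART-Seq2 libraries keep no strand, so sense and antisense reads of the mt-Nd5 and mt-Nd6 region cannot be told apart.

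A second ambiguity comes from copies of mitochondrial DNA in the nuclear genome. Annotated pseudogenes on chromosome 1 matched mt-Atp6 (Gm10925, 678 of 678 bases identical) and mt-Co3 (Gm28437, 783 of 783), so no read within these matching bases can be assigned to either locus by its sequence. The mitochondrial genes are slightly longer than the copies, at 681 bases for mt-Atp6 and 784 for mt-Co3. The last 36 bases of each copy and the matching bases of its mitochondrial counterpart, all without a difference, are shown as an example (mt-Atp6 at chrM:8569-8604 and Gm10925 at chr1:24613974-24614009 on the minus strand, mt-Co3 at chrM:9354-9389 and Gm28437 at chr1:24613189-24613224 on the minus strand). The mitochondrial stretches thus stop where the copy ends, short of the end of the gene.
mt-Atp6 last bases: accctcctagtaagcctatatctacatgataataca
Gm10925 last bases: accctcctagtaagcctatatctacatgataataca
mt-Co3 last bases: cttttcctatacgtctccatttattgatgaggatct
Gm28437 last bases: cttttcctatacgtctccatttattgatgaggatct
The estimated counts put on Gm10925 were 174035 in C, 70980 in A and 77661 in B, far more than the 34129 in C, 17456 in A and 13993 in B put on mt-Atp6 itself. Gm28437 received 24254 counts in C, 24448 in A and 43292 in B, close to the 29845 in C, 28338 in A and 50638 in B of mt-Co3. Copies of mt-Co2 (Gm28661) and mt-Nd3 (Gm28438, 344 of 345 bases identical with the substitution T3C, counted from the first base of the frame) held no counts in C or B, and 322 (Gm28661) and 17 (Gm28438) in A. Copies of mt-Nd4l (Gm10222, 294 of 294 bases identical) and of part of mt-Nd4 (Gm28439, 876 bases at 100% identity) held no counts in any library. Reads within these identical bases cannot be told apart by sequence either. With the copies summed in, mt-Atp6 stood at 7263 CPM in C, against 4881 in A and 3967 in B, and mt-Co3 at 1888 CPM in C, against 2914 in A and 4065 in B. Levels of these 2 genes are therefore given both ways where it matters.

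The 13 mitochondrial genes took 2.39% of all counts in C, against 2.69% in A and 2.74% in B (mean of A and B 2.72% ± 0.0412, SD, n = 2). With the nuclear copies summed in, the share was 3.08% in C, against 3.22% in A and 3.27% in B. The 95 nuclear genes took 2.64% in C, against 2.41% in A and 2.51% in B (2.46% ± 0.0751, SD, n = 2). The smaller group of genes thus gave about as many counts as the larger one in every library, while the order of the genomes was reversed in C: the nuclear share was the higher one there and the mitochondrial share in A and B. With the copies summed in, the mitochondrial share was the higher one in all 3 libraries. Exact binomial intervals at 95% were narrow at these depths, such as 2.68% to 2.69% for the mitochondrial share in A, and cover counting error only.

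Levels of different genes were compared as TPM, counts divided by the mean length of a gene's protein-coding transcripts and scaled to 1000000 per library. The mitochondrial mRNAs, although cut from shared precursors, were spread widely. mt-Co1, the catalytic subunit of complex IV, was the highest in A and B as counted, with 4319 TPM in C, 9013 in A and 8753 in B. mt-Nd1, a membrane subunit of complex I, had 5362 TPM in C, 6800 in A and 5582 in B. mt-Co2, which takes electrons from cytochrome c, had 2897 TPM in C, 4453 in A and 6051 in B. All 3 were lowest in C, and their positions under mt-Co1 in A and B differed by library, since mt-Nd1 was above mt-Co2 in A and below it in B.

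mt-Cytb, the single mitochondrial subunit of complex III, had 9927 TPM in C, against 4909 in A and 4111 in B, and was the highest mitochondrial gene in C as counted. mt-Co3 had 1744 TPM in C, 2775 in A and 3607 in B as counted. Complex V has a pair of mitochondrial subunits: mt-Atp6, part of the proton channel, had 2296 TPM in C, 1968 in A and 1147 in B as counted, and mt-Atp8, a small membrane subunit, had 3324 in C, 1565 in A and 2271 in B. A and B went opposite ways for these neighbours, mt-Atp6 being higher in A and mt-Atp8 in B, and the 2 genes lie on the same mRNA. Their count ratio, mt-Atp8 to mt-Atp6, was 0.434 in C, 0.238 in A and 0.593 in B, and 0.0711, 0.0470 and 0.0905 in these libraries with the nuclear copy summed in. The difference between A and B therefore narrowed but did not vanish with the copy. The copy also decides which mitochondrial gene leads: with it summed in, mt-Atp6 took 30.7% of the mitochondrial level per length in C, 21.8% in A and 16.9% in B, above mt-Cytb in C (21.8%) and above mt-Co1 in A (19.7%), while mt-Co1 stayed the highest in B (19.7%).

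The other complex I subunits of mitochondrial DNA were lower. mt-Nd4 had 978 TPM in C, 1225 in A and 978 in B. mt-Nd4l, which shares its mRNA, had 434 in C, 904 in A and 1009 in B, so that mt-Nd4l to mt-Nd4 was 0.0957 in counts in C, 0.159 in A and 0.222 in B. mt-Nd5 had 487 TPM in C, 840 in A and 868 in B. mt-Nd2 had 359 TPM in C, 378 in A and 288 in B, and mt-Nd3 118 in C, 333 in A and 238 in B. These genes lie between the abundant mt-Nd1 and mt-Cytb on the same strand, and none came near either. mt-Nd6, on the other strand, was the lowest in A and B, with 266 TPM in C, 146 in A and 137 in B, and its count ratio to mt-Nd5 was 0.156 in C, against 0.0495 in A and 0.0449 in B.

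**Figure D1:**
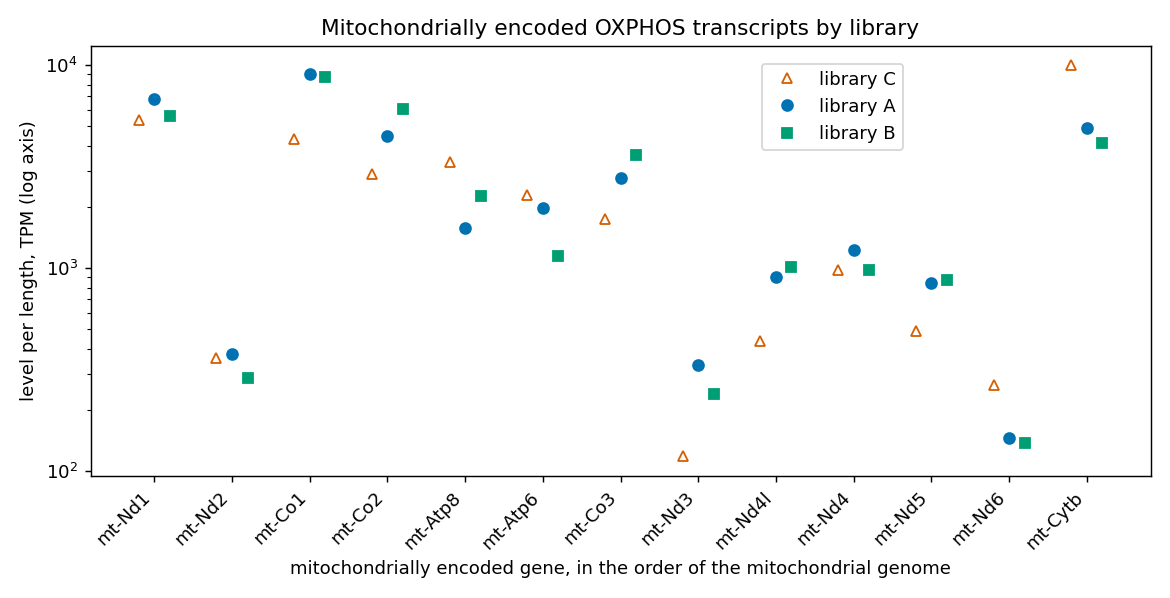
Level per length (TPM, log axis) of the 13 mitochondrially encoded genes in genome order, with 1 point per library (triangles C, circles A, squares B), as counted without nuclear copies. mt-Cytb lies at 9927 TPM in C, above 4909 in A and 4111 in B, while mt-Co1, mt-Co2, mt-Co3, mt-Nd3, mt-Nd4l and mt-Nd5 lie lower in C than in A and B.

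As a share of the mitochondrial counts, mt-Cytb took 35.9% in C, against 15.2% in A and 13.3% in B, and mt-Co1 took 21.1% in C, against 37.6% in A and 38.1% in B. The count ratio of mt-Cytb to mt-Co1 was thus 1.70 in C, against 0.403 in A and 0.348 in B. This ratio is taken within a library, so neither depth nor scaling enters it, and neither gene gained counts from a nuclear copy.

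**Figure D2:**
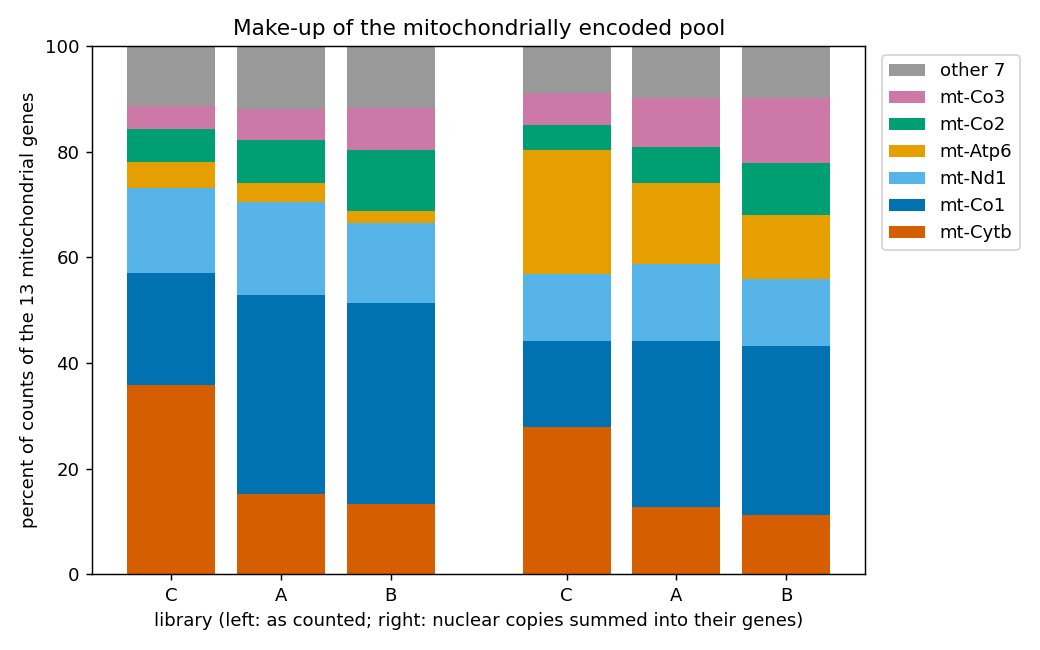
Percent of the counts of the 13 mitochondrial genes taken by each of 6 genes and by the other 7, per library, as counted (left) and with nuclear copies summed in (right). As counted, mt-Cytb fills 35.9% of the bar of C, against 15.2% in A and 13.3% in B, and mt-Co1 fills 21.1%, against 37.6% and 38.1%.

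Among nuclear genes, complex V was led by Atp5b of the catalytic head. Atp5b, its catalytic beta subunit, was the highest nuclear gene in A and B (Uqcrc1, below, was higher per length in C), with 1673 TPM in C, 2601 in A and 2726 in B (2664 ± 88.4 over A and B, SD, n = 2). The lead of Uqcrc1 in C depends on length, since Atp5b held more counts there, at 2442 CPM against 1793. Atp5a1, the alpha subunit that alternates with beta in the ring, had 751 TPM in C, 1000 in A and 1021 in B, and the Atp5b to Atp5a1 ratio was 1.66 in counts in C, 1.94 in A and 1.99 in B. Atp5c1, the rotating gamma shaft, had 692 TPM in C, 896 in A and 930 in B. The 5 genes of the head had a median of 913 TPM ± 24.1 (SD over A and B, n = 2), the 4 of the peripheral stalk 689 ± 26.1 and the 4 small membrane subunits 339 ± 56.9. In C the head had a median of 692 TPM, under the 792 of the peripheral stalk. The c ring, which turns with the proton flow, is encoded by 3 genes for the same mature protein. Of these Atp5g3 was the highest, with 366 TPM in C, 424 in A and 392 in B. Atp5g1 had 264 TPM in C, 166 in A and 166 in B, and Atp5g2 67.8 in C, 114 in A and 75.03 in B, so the order Atp5g3, Atp5g1, Atp5g2 was kept in all 3 libraries. It depends on length, since Atp5g1 has long annotated transcripts (mean 2666 bases, against 719 for Atp5g3) and held more counts, at 536 CPM in C, 318 in A and 342 in B, against 200.3 in C, 219 in A and 218 in B for Atp5g3.

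In complex III, Uqcrc1, a core protein of its matrix side, stood out with 3048 TPM in C, 2101 in A and 1504 in B, against 573 in C, 536 in A and 443 in B for Uqcrc2, its partner in the complex. In counts, before any length enters, the ratio of Uqcrc1 to Uqcrc2 was 3.48 in C, 2.57 in A and 2.22 in B. Cyc1, which carries the haem of cytochrome c1, had 862 TPM in C, 994 in A and 801 in B. The Rieske iron-sulphur protein Uqcrfs1 had 461 TPM in C, 411 in A and 357 in B, and the small subunit Uqcr11 1106 in C, 769 in A and 660 in B. The 9 nuclear genes of this complex ranged between 361 and 1803 TPM as means of A and B.

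The nuclear subunits of complex IV were led by Cox8a, with 1262 TPM in C, 1515 in A and 1970 in B. Cox4i1, a regulatory subunit, had 1487 TPM in C, 1401 in A and 1559 in B, and Cox6b1 had 1314 in C, 1097 in A and 1506 in B. Their order was not the same in every library, since Cox8a was the lowest of the 3 in C and the highest in A and B. Several subunits of this complex exist as tissue isoforms, and the widely used form was the abundant one in every pair. Cox4i2, Cox6b2, Cox7b2, Cox8b, Cox8c and Ndufa4l2 were at 0 counts in all libraries, which allows up to 0.105 CPM in C, 0.166 in A and 0.130 in B (3 counts per library). Their widely used partners Cox4i1, Cox6b1 and Cox8a have been given above, Cox7b had 251 TPM in C, 235 in A and 280 in B, and Ndufa4 had 689 in C, 603 in A and 642 in B. Cox6a2, a heart and muscle form, had 7 counts in C only, 0.244 CPM (exact Poisson interval 0.0982 to 0.503), against 454 CPM in C, 383 in A and 410 in B for Cox6a1. Cox7a1, also a heart and muscle form, was the exception. It had 6.87 CPM in C, 5.57 in A and 3.03 in B, at count ratios to Cox7a2 of 0.0339 in C, 0.0371 in A and 0.0162 in B. Cox7a2 itself had 404 TPM in C, 317 in A and 367 in B, and the related Cox7a2l 262 in C, 328 in A and 289 in B.

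Complex I has the most nuclear genes. Among its highest were Ndufb9, an accessory subunit, with 638 TPM in C, 573 in A and 512 in B, and the core subunit Ndufv1, which binds NADH, with 545 in C, 568 in A and 446 in B. Ndufs1, the largest iron-sulphur subunit, had 205 TPM in C, 283 in A and 243 in B. The 7 core genes had a median of 340 TPM ± 29.8, the 29 accessory genes 205 ± 3.03 and the 8 assembly factors 32.9 ± 0.431 (SD over A and B, n = 2 each). The assembly factors, which leave the finished complex, ranged between 17.4 and 70.4 TPM as means of A and B, lower than every core subunit, but the accessory genes Ndufb2 and Ndufb4 lay within their range, Ndufb2 with a mean transcript length of 2413 bases.

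Complex II, the only one without mitochondrial genes, had Sdha, the flavoprotein, at 607 TPM in C, 774 in A and 600 in B. Sdhb, its iron-sulphur partner, had 783 TPM in C, 472 in A and 390 in B, so that Sdhb exceeded Sdha per length in C and lay under it in A and B. The order in C depends on length, since Sdha was the higher in CPM in every library. Sdha had 837 CPM in C, 1007 in A and 843 in B, against 681, 387 and 346 for Sdhb. The membrane anchor Sdhd had 439 in C, 329 in A and 276 in B.

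The complexes and genomes were then compared by the median TPM of their genes. The mitochondrial median stood above the nuclear median of the same complex in every library. Single genes overlapped, since mt-Nd6 had 146 TPM in A and 137 in B, under the nuclear complex I medians of 186 and 199. For complex I the medians over A and B were 854 TPM ± 19.9 (mitochondrial) and 192 ± 9.59 (nuclear), for III 4510 ± 564 and 527 ± 19.2, for IV 5252 ± 1130 and 314 ± 12.6, and for V 1738 ± 40.2 and 446 ± 58.3 (SD, n = 2), while complex II had 367 ± 47.5. The nuclear median of complex IV includes the silent isoforms and was 503 TPM over genes with at least 10 counts in every library.

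The ratio of the mitochondrial to the nuclear median was 1.72 in C, against 4.52 in A and 4.36 in B for complex I. It was 17.3 in C, against 9.56 in A and 7.60 in B for complex III, and 8.70 in C, against 13.8 in A and 19.9 in B for complex IV. For complex V it was 7.50 in C, against 4.37 in A and 3.51 in B, and 23.1, 14.3 and 10.1 in these libraries with the nuclear copies summed in. Complex IV had the highest ratio of the 4 in A and B, and complex III in C (complex V with copies summed). The nuclear median of complex IV is lowered by its silent isoforms. Over genes with at least 10 counts in every library its ratio was 5.26 in C, against 9.61 in A and 11.1 in B, which in A is close to that of complex III. The ratio in C lay below both A and B for complexes I and IV and above both for III and V, which is a description without a test. A count per mRNA says nothing of the stoichiometry of the proteins.

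**Figure D3:**
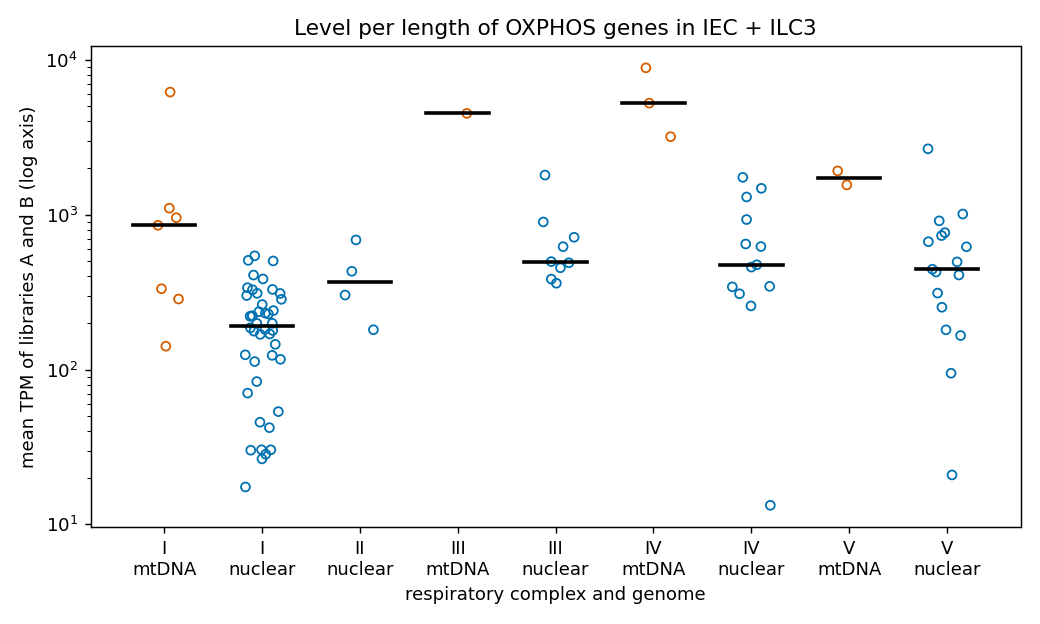
Mean TPM of libraries A and B (log axis) for each gene with at least 10 counts in every library, by respiratory complex and genome, with a bar at the median of the plotted genes. The mitochondrial medians of complexes I, III, IV and V (854, 4510, 5252 and 1738 TPM) lie above those of the nuclear genes of the same complexes.

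Library C was set against A and B by the quasi-likelihood test of edgeR. Of the 108 genes, 100 passed its filter on low counts, the other 8 being the 6 isoforms at 0, Cox6a2 and the second Atp5o locus, which had 1 count in A. Of the 100, 4 passed an adjusted p of 0.1 (2 higher and 2 lower in C), or 4%, against a background of 6.56% of all 13604 genes tested (1.36% higher and 5.2% lower). In this test the share over both directions is thus no higher than the background. The 2 higher calls were slightly above their background and the 2 lower calls under theirs. Each call below is 1 gene's own. An unadjusted p under 0.05 was found for 26 of the 100. The Wald test of DESeq2 called 17 (11 higher and 6 lower in C), against a background of 11.9% (2.9% higher and 8.99% lower). By that test the calls lay above the background in total and for genes higher in C, and under it for genes lower in C. The difference between the tests was not examined further. C is a single library that the test takes to vary like A and B, the only pair that gives a spread (1 residual degree of freedom). A call therefore concerns this library and no condition. The labels call the libraries biological replicates without saying that they came from separate cultures, so p-values measure only the spread between these samples.

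mt-Cytb had 8649 CPM in C, against 4038 in A and 3645 in B, a log2 fold change of 1.17 (standard error 0.27, adjusted p = 0.068, edgeR). Ndufa12, an accessory subunit of complex I (chr10:94198720-94221443 in GRCm38), had 298 CPM in C, against 141 in A and 137 in B (log2 fold change 1.10 with a standard error of 0.27, adjusted p = 0.079, edgeR). mt-Nd3, part of the hinge between the arms of complex I, had 31.3 CPM in C, against 83.2 in A and 64.2 in B (log2 fold change -1.24 with a standard error of 0.33, adjusted p = 0.096, edgeR). mt-Nd4l, a small subunit of the membrane arm, had 98.3 CPM in C, against 193 in A and 232 in B (log2 fold change -1.11 with a standard error of 0.31, adjusted p = 0.099, edgeR). In all 4, C lay outside the range of A and B by more than A and B differed. With the trend of fold change on transcript length removed, all 4 lost the call with log2 fold changes of 0.98 for mt-Cytb (adjusted p = 0.110, edgeR), 0.90 for Ndufa12 (adjusted p = 0.127, edgeR), -1.15 for mt-Nd3 (adjusted p = 0.117, edgeR) and -0.93 for mt-Nd4l (adjusted p = 0.144, edgeR). In that fit mt-Co1 and mt-Atp8 gained the call. mt-Cytb also lost it over genes with at least 10 counts in every library (log2 fold change 1.15, adjusted p = 0.130, edgeR), and mt-Nd3 with the GC trend removed (-0.76, adjusted p = 0.219, edgeR).

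The other mitochondrial genes did not pass. Log2 fold changes of C over A and B were negative for all 3 complex IV genes, at -1.01 for mt-Co1 (adjusted p = 0.106, edgeR), -0.84 for mt-Co2 and -0.85 for mt-Co3, and also for mt-Nd5 (-0.78), mt-Nd1 (-0.17) and mt-Nd4 (-0.14). They were positive for mt-Nd6 (0.94, adjusted p = 0.112, edgeR), mt-Atp8 (0.81), mt-Atp6 (0.60) and mt-Nd2 (0.15). In CPM, C lay outside A and B for all 13 genes, above both for 5 and below both for 8, but for mt-Nd2 by only 284 in C against 282 in A and 231 in B. Among all genes tested, 37.3% had C above both and 41.2% had it below both.

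The nuclear genes leaned the other way from the whole table. Of 87 tested, 64 had a log2 fold change above 0 (45.6% of all genes did), C lay above both A and B for 58 and below both for 12, and the median was 0.32, against -0.10 over all genes tested. With the trend of fold change on transcript length removed, the median was 0.17, against -0.09 over all genes tested. Medians by complex were 0.47 for I, 0.30 for II, 0.30 for III, 0.17 for IV and -0.14 for V, and 0.33, 0.13, 0.13, 0.04 and -0.28 in the same order with the length trend removed. In complex I, 40 of 44 genes were above 0, with a median of 0.28 over the core genes, 0.49 over the accessory genes and 0.70 over the assembly factors. Only Ndufa12 was called. Examples among the rest, chosen after their values were seen, are Ndufb8, an accessory subunit, with 534 CPM in C, against 290 in A and 260 in B (log2 fold change 0.96, adjusted p = 0.109, edgeR), and Ndufa8, with 298 CPM in C, against 153 in A and 151 in B (0.97, adjusted p = 0.102, edgeR). In these 2, as in Ndufa12, C lay well above a pair of libraries that nearly coincided.

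In complex II 3 of 4 genes and in complex III 6 of 9 were above 0. Sdhb had 681 CPM in C, against 387 in A and 346 in B (log2 fold change 0.89, adjusted p = 0.125, edgeR), while Sdha had a log2 fold change of -0.14. Uqcrc1 had 1793 CPM in C, against 1167 in A and 900.2 in B (0.79, adjusted p = 0.173, edgeR), while Cyc1 was at -0.03 and Uqcrfs1 at 0.30. None of these passed the test.

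Complex V was the only complex whose nuclear median lay below that of all genes. All 5 genes of its catalytic head had negative log2 fold changes, with a median of -0.40: Atp5b had 2442 CPM in C, against 3584 in A and 4048 in B (-0.64, adjusted p = 0.239, edgeR), Atp5a1 was at -0.40 and Atp5c1 at -0.37. The peripheral stalk had a median of 0.21, the c ring of -0.13 and the small membrane subunits of -0.17. The median of complex V turned to 0.08 with B left out and was -0.29 with A left out, so its sign rests on B. No gene of complex V was called.

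**Figure D4:**
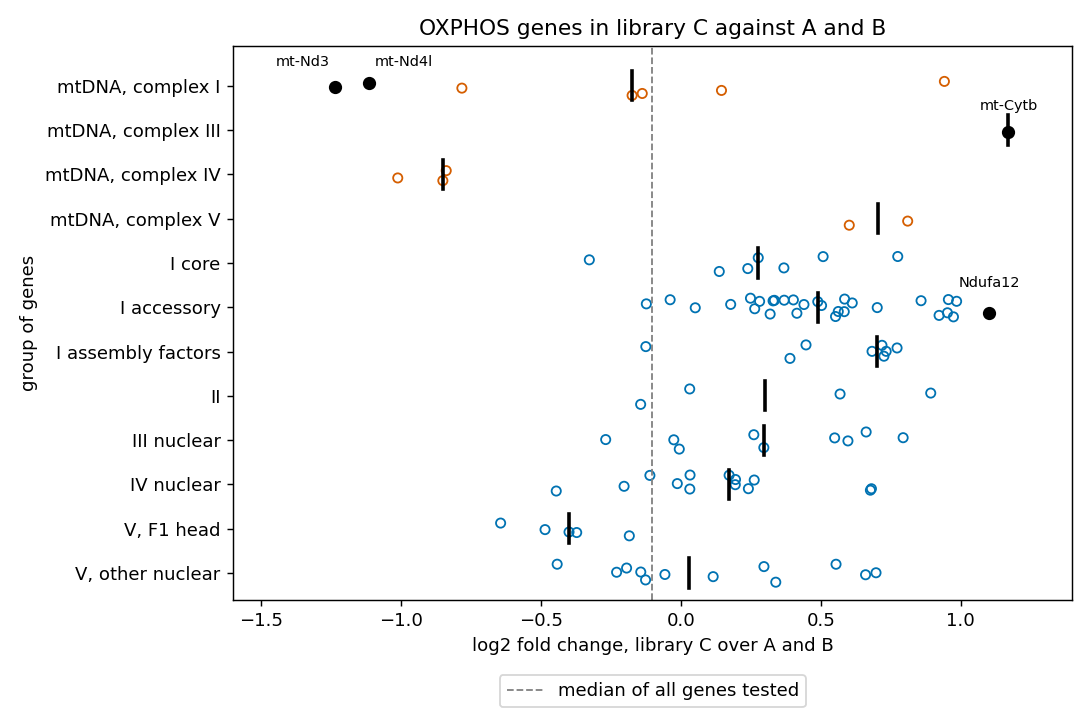
Log2 fold change of library C over A and B for each tested gene by group, with filled points for the 4 genes at an adjusted p under 0.1, a bar at each group's median and a dashed line at the median of all genes tested (-0.10). The accessory genes of complex I centre at 0.49 and the catalytic head of complex V at -0.40.

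Libraries A and B were closer to each other for nuclear OXPHOS genes than for genes at large. The median absolute log2 difference was 0.20 over the nuclear genes and 0.27 over the mitochondrial genes, against 0.35 over all genes with at least 10 counts in both. Of the 87 nuclear genes 6 (6.9%) were 1.5-fold or more apart, against 29.2% of all such genes. The sets were not matched for abundance, and genes at large include those with few counts. The closeness therefore cannot be read as a trait of OXPHOS genes. Between C and A the same medians were 0.40 for nuclear and 0.70 for mitochondrial genes, against 0.50 for all genes, and between C and B 0.40 and 0.98, against 0.58. The mitochondrial genes were therefore closer than the table at large between A and B and farther apart than it when C was involved.

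The largest differences of A over B were 0.88 on the log2 scale for Cox7a1, 0.70 for Ndufaf1 (an assembly factor, 36.6 CPM in A and 22.6 in B), 0.67 for mt-Atp6, 0.50 for Atp5g2 and 0.37 for Uqcrc1. The difference of mt-Atp6 is as counted. With its nuclear copy summed in, 4881 CPM in A stood against 3967 in B, a smaller gap than that of Uqcrc1. The smallest were -1.03 for Atp5k (subunit e of complex V, 28.8 CPM in A and 58.9 in B), -0.69 for Atp5e (the epsilon subunit of the head), -0.65 for mt-Atp8, -0.64 for Cox6c and -0.61 for Uqcrh, the last 2 being small subunits of complexes IV and III. Short mRNAs tended to be lower in A. Of the 11 widely used subunits of complex IV, 10 were lower in A than in B, as were 14 of 17 nuclear genes of complex V. Over the 87 nuclear genes the rank correlation (Spearman) of transcript length with the difference of A over B was 0.40, given without a p since all points share the same 2 libraries. With the log2 fold change of C the correlation was 0.074, against -0.15 over all genes tested with a length. The nuclear genes are short, with a median transcript of 772 bases, against 2139 for all genes tested.

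**Figure D5:**
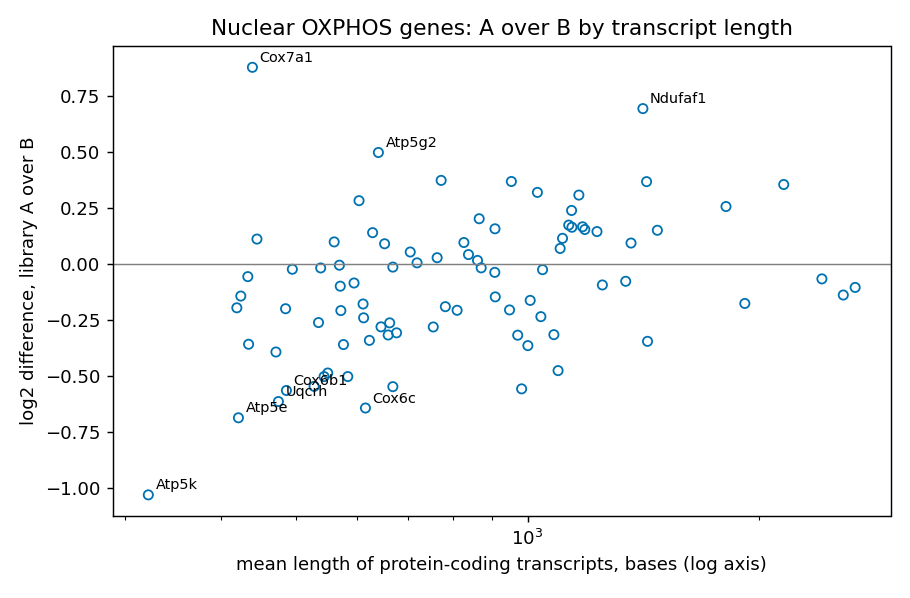
Log2 difference of library A over B against mean length of protein-coding transcripts (bases, log axis) for the 87 nuclear genes tested. Points at the short end lie mostly under 0, down to -1.03 for Atp5k, and Cox7a1 at 0.88 and Ndufaf1 at 0.70 are the highest.

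Promoters, taken as 250 bases before to 50 after the start, were found in RefSeq (GRCm38.p6) for 74 of the 95 nuclear genes. They were searched on both strands for 3 motifs of factors known to act on respiratory genes. The NRF1 motif, the 10-base palindrome that the capitals in the Uqcrc1 promoter spell, was in 7 of the 74 (9.46%), against 1.07% of all 27025 genes with a promoter in the same table. The ETS motif CCGGAAG, bound by GABP, was in 18 (24.3%), against 9.93%, and the YY1 motif AAGATGGC in 10 (13.5%), against 3.19%. The ETS motif ends in the letters AAG with which the YY1 motif begins, so both can share them, and Atp5j and Ndufaf8 held both motifs. A match is a run of letters and not a site, and the shares describe these windows only. The promoter of Uqcrc1 (chr9:108936398-108936697, plus strand), the highest nuclear gene of complex III, is shown because it holds the NRF1 motif, in capitals. RefSeq starts can differ from those of GENCODE.
Uqcrc1 promoter: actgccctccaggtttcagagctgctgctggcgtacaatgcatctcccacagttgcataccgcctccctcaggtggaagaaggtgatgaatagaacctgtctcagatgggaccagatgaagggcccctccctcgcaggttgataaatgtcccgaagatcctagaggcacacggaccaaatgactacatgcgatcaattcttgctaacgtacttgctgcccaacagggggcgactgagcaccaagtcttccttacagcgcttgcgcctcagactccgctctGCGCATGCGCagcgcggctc

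Genes that work beside the complexes were read from lists. Of 43 tested assembly factors outside the naming rule, 2 were higher and 1 lower in C (background 1.36% and 5.2%), with a median log2 fold change of 0.43. Coa3, an assembly factor of complex IV, had 328 CPM in C, against 146 in A and 135 in B (log2 fold change 1.22, adjusted p = 0.063, edgeR). Cox10 and Cox15 act in succession on the haem A of complex IV and went opposite ways: Cox10 had 124 CPM in C, against 62.3 in A and 49.9 in B (1.15, adjusted p = 0.084, edgeR), and Cox15 had 15.2 CPM in C, against 42.2 in A and 41.5 in B (-1.46, adjusted p = 0.078, edgeR). Of 17 genes for mobile carriers and quinone entry 1 was called, higher (background 1.36%). This was Etfa, a subunit of the electron transfer flavoprotein, with 532 CPM in C, against 266 in A and 240 in B (1.07, adjusted p = 0.088, edgeR). Etfb, its partner and the most abundant of the list per length in A and B, had 232 CPM in C, against 174 in A and 181 in B, and was not called.

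Among 13 genes of mitochondrial DNA maintenance and transcription (median -0.24) 1 was called, lower (background 5.2%). This was Polrmt, the mitochondrial RNA polymerase, with 19.4 CPM in C, against 57.7 in A and 55.3 in B (log2 fold change -1.54, adjusted p = 0.057, edgeR). Tfam, the packaging and initiation factor, had 52.4 CPM in C, against 55.1 in A and 68.9 in B, and was not called. Of 9 nuclear regulators of OXPHOS genes (median -0.60, same background) 1, Esrrg, an orphan nuclear receptor, was called lower (adjusted p = 0.053, edgeR), with 0 counts in C, against 2.70 CPM in A and 7.70 in B. Pprc1, a coactivator, was the most abundant of them per length in the mean of A and B but lay under Esrra in C and A, with 68.98 CPM in C, against 100.4 in A and 114 in B.

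Of 14 TCA cycle genes none was called (median 0.09), and Mdh2, the malate dehydrogenase, was the most abundant, with 2008 CPM in C, against 1448 in A and 1194 in B. Of 5 tested inner membrane carriers (median -0.35, same background) 1, Ucp2, an uncoupling protein homologue, was called lower, with 605 CPM in C, against 1945 in A and 2069 in B (log2 fold change -1.73, adjusted p = 0.038, edgeR). Glycolysis, the main other route to ATP, had a median of -0.66 over 14 genes, of which 2 were called, both lower (background 5.2% lower). Gapdh had 1220 CPM in C, against 2891 in A and 2800 in B (-1.22, adjusted p = 0.078, edgeR). Gpi1 had 470 CPM in C, against 1206 in A and 991 in B (-1.22, adjusted p = 0.087, edgeR). Ldha, the most abundant, had 2599 CPM in C, against 5091 in A and 3585 in B without passing the test. Of 4 tested B cell and myeloid markers 1, Cd79b, was called lower (adjusted p = 0.085, edgeR, background 5.2%). Of 3 tested stromal markers 1, Vim, was called lower (adjusted p = 0.061, edgeR, same background). Cd79b, a B cell receptor chain, was at 0 counts in C, against 2.43 CPM in A and 3.42 in B. Vim, the filament protein vimentin, was at 0 counts in C, against 2.54 CPM in A and 5.84 in B. Other markers went the other way without a call, with log2 fold changes above 0 for 2 of the 4 and 1 of the 3. Among them Ms4a1, also a B cell marker, had 4.75 CPM in C, against 1.71 in A and 1.51 in B.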

How the data were processed

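RNA-seq of sorted IEC from 3 IEC + ILC3 libraries was used. The authors prepared libraries with SMART-Seq2, trimmed reads with Trimmomatic 0.39 and quantified transcripts of Ensembl GRCm38 with Salmon 0.14.1, and the deposited values are estimated counts per gene, summed by tximport and already whole. Symbols (35436 of 35824 genes), lengths and positions came from GENCODE M21. The 388 genes with no symbol took no more than 0.0697% of any library and stayed in the totals. A chi-square per gene of 77.5 between A and B, the smallest of the 3 pairs, was far above sampling noise, so no libraries were merged.

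C was set against A and B with edgeR 4.0.16 in R 4.3.3 (filterByExpr, TMM, quasi-likelihood test, Benjamini-Hochberg over all genes tested, threshold 0.1). DESeq2 1.42.0, other scalings and filters, length and GC trends (loess, span 0.5), other gene lengths and left-out libraries were tried as alternatives. Copies were found with BLAST 2.17.0, and those of at least 99% identity were summed in, an alternative chosen after seeing the data. The code was tested on simulated counts. Tables were handled in Python 3.11.15.

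Members and lists were chosen with earlier results of these data known. Named were the 13 mitochondrial genes, the 3 highest nuclear genes per complex, catalytic and core subunits, tissue isoforms, called genes, the 5 highest and 5 lowest of A over B, and the called and most abundant genes of each list. Not every gene covered by this rule is reported here.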

Additional observations from a re-analysis of the deposited data

How the results depend on the processing

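The 4 calls in C became 2 with DESeq2 size factors (mt-Nd3 and mt-Nd4l lost), 18 with no filter on low counts, 9 with at least 10 counts in every library (mt-Cytb lost), 17 with the Wald test of DESeq2, 2 with the length trend removed, 8 with the GC trend removed (mt-Nd3 lost) and 0 at an adjusted p of 0.05, while plain totals, totals without mitochondrial genes, subunits only and summed copies left the count within 1.5-fold. With 1 library a side no test was possible, so leaving out A or B gave no count. The fold change of mt-Nd2 turned to -0.058 with the length trend removed and that of mt-Nd4 to 0.089 with the GC trend removed. Over the single genes named in the comparison, 203 gene and setting pairs kept their direction and, where a test was possible, their side of the threshold. Another 29 gained the call, 12 lost it and 2 turned sign. The 203 include the settings with A or B left out, which had no test and were judged by direction only. The cause was not tested. No paired analysis was possible because all libraries belong to 1 group.

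The mitochondrial share was 2.61% over A, B and C and 3.24% with copies summed, and 2.54% to 2.72% with 1 library left out. The nuclear share was 2.46% to 2.58%. The ratio of the genomes over A, B and C was 3.53 for complex I, 11.5 for III and 5.13 for V. With the exon union as length it was 9.10 for I, 14.3 for III, 29.8 for IV and 12.5 for V, with the longest transcript 5.62 for I, with subunits only 3.88 for I, and with copies summed 12.2 for V. Over genes with at least 10 counts in every library it was 10.4 for IV. The mitochondrial median stayed above the nuclear one in all these settings. With 1 library left out the ratio was 3.04 to 4.44 for I, 8.58 to 13.4 for III, 11.3 to 16.8 for IV and 3.94 to 5.93 for V.

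Median TPM over A, B and C was 714 for mitochondrial complex I, 213 for nuclear I, 419 for II, 6316 for mitochondrial III and 2095 for mitochondrial V. With the longest transcript it was 1085 for mitochondrial I, 462 for II, 5734 for mitochondrial III, 587 for nuclear III, 6664 for mitochondrial IV, 371 for nuclear IV and 2208 for mitochondrial V. With the exon union it was 1487 for mitochondrial I, 163 for nuclear I, 450.0 for II, 7860 for mitochondrial III, 549 for nuclear III, 9131 for mitochondrial IV, 3026 for mitochondrial V and 243 for nuclear V. Nuclear IV was at 503 with a minimum of 10 counts. With 1 library left out, TPM ranged over 637 to 854 for mitochondrial I, 192 to 226 for nuclear I, 367 to 462 for II, 4510 to 7418 for mitochondrial III, 527 to 557 for nuclear III, 3675 to 5252 for mitochondrial IV, 314 to 328 for nuclear IV, 1738 to 2288 for mitochondrial V and 389 to 446 for nuclear V.

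Median log2 fold changes with the length trend removed were -0.38 for mitochondrial I, 0.33 for nuclear I, 0.98 for mitochondrial III, 0.13 for nuclear III and 0.84 for mitochondrial V. Mitochondrial V was at 0.69 with plain totals, 1.11 with the GC trend removed and 0.76 with copies summed. With A or B left out the medians ranged over -0.26 to -0.08 for mitochondrial I, 0.42 to 0.46 for nuclear I, 0.18 to 0.44 for II, 1.10 to 1.25 for mitochondrial III, 0.25 to 0.35 for nuclear III, -1.07 to -0.59 for mitochondrial IV, 0.06 to 0.28 for nuclear IV, 0.74 to 0.75 for mitochondrial V and -0.29 to 0.08 for nuclear V.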
